A study of Mus musculus with 24 samples.

Results

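Normal pancreatic duct organoids (N organoids) treated with the eIF4A inhibitor CR-31 or with vehicle were compared at the level of polysome-associated mRNA. The comparison rests on 6 of the 24 libraries of the series: the polysome libraries of N organoids given vehicle (n = 3) and of N organoids given CR-31 (n = 3), chosen by their labels and paired by replicate number. The series sequenced polysome-associated and total mRNA of N organoids, grown from wild-type ducts of C57Bl/6J mice, and of KP organoids, grown from pancreatic tumours with engineered alleles that include p53R172H. Organoids were kept in medium lacking EGF and N-acetylcysteine (NAC) and received 10 nM CR-31 (CR-1-31-B) or the solvent DMSO for 1 h. Polysome-associated mRNA is the pooled part of a sucrose gradient in which an mRNA carries at least 3 ribosomes, and total mRNA was taken from the same lysate before the gradient. The question is which mRNAs gain or lose polysome association in non-tumour epithelium when eIF4A is inhibited briefly.

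eIF4A is the RNA helicase of the eIF4F complex, which binds the capped end of an mRNA and unwinds its leader so that the small ribosomal subunit can scan to the start codon. CR-31 belongs to the rocaglates, natural-product derived compounds that clamp eIF4A onto RNA, with a preference for stretches of purines, and so block scanning. Polysome association of an mRNA depends on how well it is translated and also on how much of it the cell holds, so that total mRNA of the same lysate belongs beside each polysome value.

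The libraries were deep. Total counts ranged from 47308461 to 267463046 over the 6 libraries, and 12209 gene entries had a count above 0 in all 24 libraries and were tested. All 18 duct markers (among them Krt19, Epcam and Sox9) exceeded 1 CPM (counts scaled to the size of the library) in each of the 6 libraries, with summed levels of 10800 to 16700 CPM. The summed acinar (4.57 to 6.55 CPM), fibroblast (0.543 to 1.44 CPM), endothelial (0.162 to 0.517 CPM) and endocrine (0.0184 to 0.181 CPM) markers stayed near 0, and the 10 immune markers summed to 16.3 to 32.3 CPM. The libraries are bulk samples, in which fewer cells of a type and less RNA per cell cannot be told apart. Replicate numbers marked shared samples, because vehicle and CR-31 libraries of the same number deviated together from their group means across genes (r = 0.81, 0.75 and 0.56).

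The pair of replicate 3 stood apart from the others. In replicate 1 each polysome library resembled the total mRNA of its own treatment most closely: the Spearman correlation across 8715 genes was 0.975 for vehicle with vehicle total against 0.963 with CR-31 total, and 0.973 for CR-31 with CR-31 total against 0.964 with vehicle total. In replicate 3 this was crossed. The polysome library labelled vehicle reached 0.973 with CR-31 total and 0.907 with vehicle total, and the polysome library labelled CR-31 reached 0.975 with vehicle total and 0.905 with CR-31 total. In replicate 2 both polysome libraries were closer to CR-31 total (0.938 and 0.950) than to vehicle total (0.921 and 0.918).

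**Figure D1:**
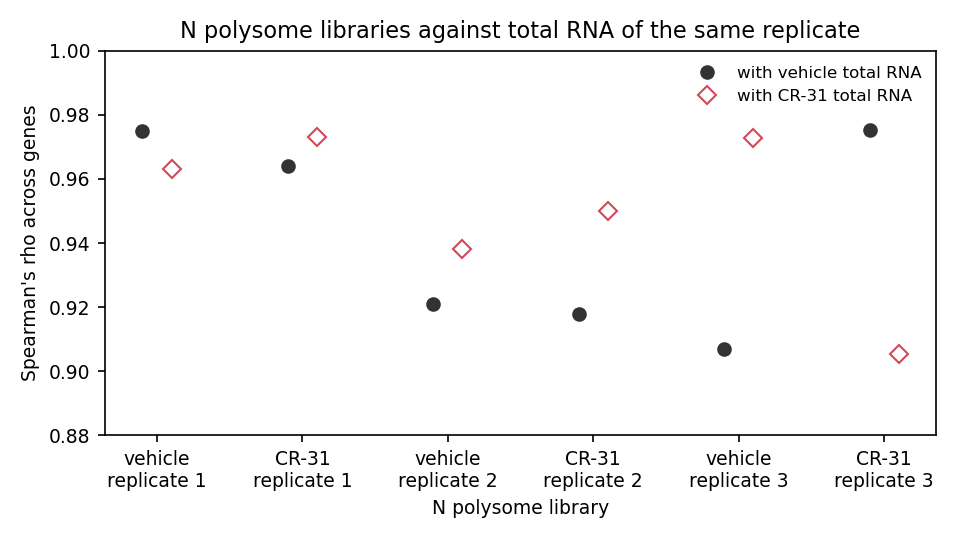
Spearman's rho across genes between each N polysome library and the 2 total libraries of its replicate number. Filled circles are vehicle total and open diamonds CR-31 total, and the vertical axis runs from 0.88 to 1. The symbols change places in replicate 3, where the library labelled vehicle sits at 0.973 with CR-31 total and the library labelled CR-31 at 0.975 with vehicle total.

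The CR-31 over vehicle ratios of replicate 3 also ran against the other pairs. Across genes, which are not independent replicates, the polysome log2 ratios correlated at 0.16 between replicates 1 and 2, at -0.27 between replicates 1 and 3 and at -0.17 between replicates 2 and 3. The polysome and total ratios of the same replicate correlated at 0.40, 0.20 and -0.67 in replicates 1, 2 and 3. The spread of the log2 ratios over genes was also wider in replicate 3 (SD 0.73) than in replicates 1 and 2 (0.38 and 0.36). Labels were kept as deposited, and whether the pair of polysome libraries of replicate 3 was exchanged was not tested. Counts of calls and fold changes are therefore given with all 3 replicates and without replicate 3.

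With all 3 replicates, no gene of 12209 passed an adjusted p of 0.25 (0% called) in edgeR's quasi-likelihood test with the replicate pairs as a block and Benjamini-Hochberg adjustment. The smallest adjusted p was 0.94, and 425 genes had an unadjusted p below 0.05. DESeq2 with the same block called 5 genes, all of them lower, among them Igf2r (log2 fold change -0.61, adjusted p = 0.034), Dmbt1 (-0.82, adjusted p = 0.034), Hist1h2af (-1.32, adjusted p = 0.083) and Tnks (-0.58, adjusted p = 0.23). Over all tested genes the median absolute log2 fold change was 0.14.

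The pairs were also counted by direction alone. Of the 12209 genes, 1203 (9.85%) were higher with CR-31 in all 3 pairs and 1347 (11%) were lower in all 3, and in 240 (1.97%) the 3 CR-31 values did not overlap with the 3 vehicle values. These shares describe the libraries and single out no gene. The 10 genes of lowest p in each direction are described here, among those with the same direction in all 3 pairs and at least 100 counts in every N polysome library, so that their shared direction follows from the choice.

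The lowest p belonged to Igf2r, the receptor that carries mannose 6-phosphate tagged enzymes to lysosomes. Its polysome level was 37.6, 43.3 and 29.7 CPM in vehicle replicates 1, 2 and 3 and 24.1, 29 and 20.1 CPM in the CR-31 replicates. All CR-31 values lay below all vehicle values, and the log2 ratios of the pairs were nearly equal at -0.64, -0.58 and -0.56. The fitted log2 fold change was -0.60 ± 0.12 (SE, n = 3 pairs, unadjusted p = 0.00062, adjusted p = 0.94, edgeR). In total mRNA of the same lysates the log2 ratios of Igf2r were -0.30, -0.15 and 0.18.

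Dmbt1 encodes a secreted scavenger glycoprotein of mucosal and ductal epithelia. Its level differed widely between replicates, with 47.9, 711 and 115 CPM in vehicle and 32.8, 442 and 51.3 CPM in CR-31 libraries, so that the groups overlapped while the CR-31 value was the lower in every pair. The fitted log2 fold change was -0.80 ± 0.17 (SE, unadjusted p = 0.0011, edgeR).

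Further genes lower in all 3 pairs included enzymes, trafficking and cytoskeletal proteins. Rrm2, the small subunit of ribonucleotide reductase, was at 36.5, 23.6 and 15.2 CPM in vehicle and 24.7, 15.8 and 11.6 CPM in CR-31 libraries (log2 fold change -0.51 ± 0.12, SE). Hadhb, a subunit of the mitochondrial trifunctional protein of fatty acid oxidation, was at 32.1, 47.1 and 39.1 CPM against 24.3, 30.2 and 24.7 CPM (-0.57 ± 0.14, SE), and here the groups did not overlap. Mkln1, which encodes muskelin of the CTLH ubiquitin ligase, was at 27.6, 33.2 and 34.9 CPM against 20.5, 24.6 and 16.7 CPM (-0.64 ± 0.16, SE), again without overlap. Tnks (tankyrase), Ylpm1, Krt4, Glg1 (a sialoglycoprotein of the Golgi) and Hist1h2af had log2 fold changes of -0.57, -0.68, -0.60, -0.59 and -1.31. Hist1h2af belongs to a family of near-identical histone genes, and since reads mapping to several places were discarded its count is uncertain.

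On the higher side, the DNA replication factor Gins4 was at 30.5, 27.4 and 22.3 CPM in vehicle and 34.4, 44.5 and 34.1 CPM in CR-31 libraries, without overlap (log2 fold change 0.49 ± 0.14, SE, unadjusted p = 0.0067, edgeR). Yap1, the transcriptional co-activator of the Hippo pathway, was at 118, 92.2 and 52.6 CPM in vehicle and 151, 119 and 77.0 CPM in CR-31 libraries (0.42 ± 0.13, SE), with overlapping groups and a higher CR-31 value in each pair. Itgb5, an integrin subunit that binds vitronectin, was at 24.4, 32.7 and 46.9 CPM against 33.4, 42.8 and 66.2 CPM (0.45 ± 0.13, SE), also higher within each pair and overlapping between groups. Peo1 (the mitochondrial DNA helicase Twinkle), Zfp710, Ccdc122, Nck2 (an adaptor of receptor tyrosine kinases), Osbpl10 and Vac14 (the scaffold of the PIKfyve lipid kinase) had log2 fold changes of 0.45, 0.42, 0.50, 0.43, 0.47 and 0.40. Lars2, the mitochondrial leucyl-tRNA synthetase, had 0.93, but its total mRNA ratios of 2.98, -0.51 and 1.98 on the log2 scale differed more between replicates than its polysome ratios did.

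All 20 of these genes were called in the same direction without replicate 3, in a fit to libraries that had also served to choose them. There the higher genes Gins4, Yap1, Itgb5, Peo1, Zfp710, Ccdc122, Nck2, Osbpl10, Vac14 and Lars2 had log2 fold changes of 0.44, 0.37, 0.43, 0.49, 0.36, 0.40, 0.31, 0.60, 0.44 and 0.68, with adjusted p from 0.038 (Osbpl10) to 0.17 (Ccdc122, edgeR). The lower genes Igf2r, Dmbt1, Rrm2, Hadhb, Mkln1, Tnks, Ylpm1, Krt4, Glg1 and Hist1h2af had -0.60, -0.61, -0.56, -0.51, -0.42, -0.53, -0.45, -0.67, -0.76 and -1.59, with adjusted p from 0.011 (Glg1) to 0.064 (Mkln1, edgeR). Among the lower genes Mkln1 and Ylpm1 moved most toward 0, from -0.64 and -0.68 with 3 replicates.

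**Figure D2:**
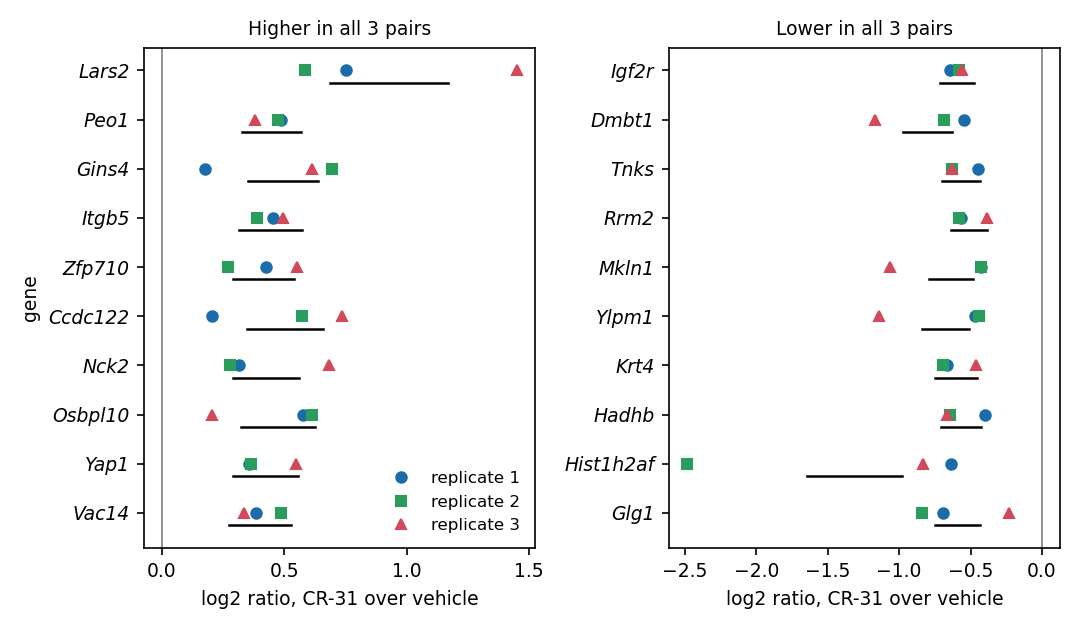
Log2 ratios of CR-31 over vehicle in N polysome mRNA for the 10 genes of lowest p that were higher (left) and lower (right) in all 3 pairs. Symbols are the replicate pairs, and the black line under them spans the fitted log2 fold change ± 1 SE. The 3 pairs of Igf2r lie between -0.64 and -0.56, and no gene in the plot passed an adjusted p of 0.25.

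Without replicate 3 the same test called 1747 genes (14.3%) at an adjusted p of 0.25, of which 1152 (9.44%) were higher and 595 (4.87%) lower with CR-31. At an adjusted p of 0.05 there were 238 higher and 37 lower genes. The balance of directions depended on the scaling: 65.9% of the called genes were higher after TMM scaling, 54.7% after RLE scaling (1010 higher, 837 lower) and 56% after upper-quartile scaling (982 higher, 771 lower), and 1605 of the 1747 genes were also called with RLE scaling. The fit leaves 3 residual degrees of freedom, of which 1 comes from N organoids, and without the replicate block it called 0 genes (221 with an unadjusted p below 0.05). The sources used here do not say whether replicates are separate cultures or lines, so p-values measure the spread between these samples, which may be technical. Sequencing lanes ran partly along the groups: the replicate 1 pair shared a lane, the replicate 3 pair shared the other, and the replicate 2 pair was split between them. With lane as a further term, which leaves the replicate 1 pair to carry the estimate, 448 genes were called, and 375 of them were among the 1747.

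The genes called from replicates 1 and 2 had the opposite direction in the polysome libraries of replicate 3, which the fit did not use. Of the 1152 higher genes, 14.6% were higher in replicate 3 polysome mRNA (median log2 ratio -0.54), against 51.5% of all tested genes. In total mRNA of replicate 3, 88.8% of the same genes were higher (median 0.52), against 50.8% of all tested genes. Of the 595 lower genes, 68.7% were higher in replicate 3 polysome mRNA (median 0.35) and 24% were higher in replicate 3 total mRNA (median -0.37). Total mRNA of replicates 1 and 2 came from the same lysates as the polysome libraries that made the calls. There 96.2% and 93.2% of the higher genes were higher, and 5.38% and 26.1% of the lower genes were higher.

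**Figure D3:**
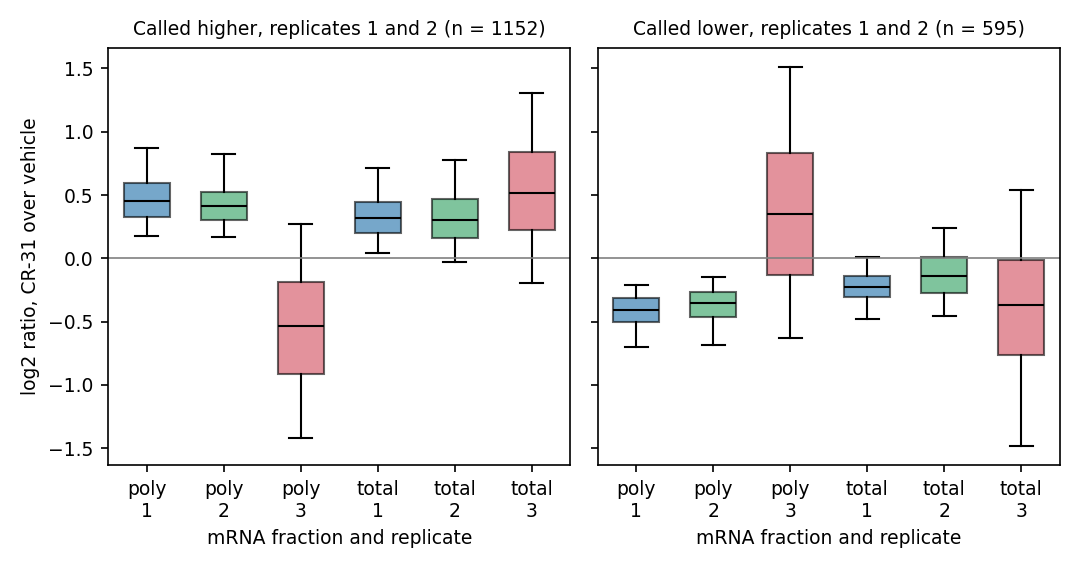
Log2 ratios of CR-31 over vehicle in polysome (poly) and total mRNA of N organoids for the 1152 genes called higher (left) and the 595 called lower (right) from polysome replicates 1 and 2. Boxes span the quartiles with the median as a line, and whiskers run from the 5th to the 95th percentile. The first 2 boxes of each panel chose the genes, the median of polysome replicate 3 lies on the other side of 0 at -0.54 and 0.35, and that of total replicate 3 lies at 0.52 and -0.37.

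The genes of lowest p on the higher side were led by Maged1, which encodes a MAGE family adaptor protein. Its polysome level rose from 88.0 and 138 CPM in vehicle replicates 1 and 2 to 227 and 292 CPM with CR-31, and was 292 CPM in the vehicle and 86.0 CPM in the CR-31 library of replicate 3. The log2 fold change was 1.23 ± 0.13 (SE, n = 2 pairs, adjusted p = 0.0029, edgeR) without replicate 3 and 0.31 ± 0.52 (SE, n = 3 pairs) with it. Its total mRNA rose in all 3 replicates, from 108, 164 and 93.2 CPM to 213, 323 and 226 CPM. Maged2, a relative of Maged1, rose by 0.94 ± 0.11 (SE) without replicate 3 and had 0.25 ± 0.37 (SE) with it.

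Prom1 encodes prominin, a membrane glycoprotein of epithelial progenitor and duct cells. Its polysome level rose from 417 and 989 CPM to 819 and 2070 CPM in replicates 1 and 2 and was 1010 and 516 CPM in vehicle and CR-31 of replicate 3. The log2 fold change was 1.03 ± 0.14 (SE, adjusted p = 0.00496, edgeR) without replicate 3 and 0.38 ± 0.35 (SE) with it. Ambp, the precursor of alpha-microglobulin and bikunin, rose from 17.4 and 133 CPM to 33.8 and 286 CPM (1.04 ± 0.13, SE) and was 99.0 and 38.4 CPM in replicate 3.

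The other higher genes of lowest p spanned membrane, metabolic and nuclear proteins. Ephx1, the microsomal epoxide hydrolase of xenobiotic detoxification, had a log2 fold change of 1.06, the tetraspanin Tspan1 0.92, and Hdac6, the cytoplasmic deacetylase of tubulin, 0.88. Atp6v1h, a subunit of the proton pump that acidifies lysosomes, had 0.80, and Gtf2h2, a subunit of the transcription and repair factor TFIIH, also had 0.80. Bdh1 (ketone body dehydrogenase), Rnf20 (the ubiquitin ligase of histone H2B) and Ecd had 0.77, 0.77 and 0.71. With all 3 replicates none of these genes was called, and their log2 fold changes lay between 0.15 (Gtf2h2) and 0.38 (Prom1).

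Most of the lower genes of lowest p had long mRNAs, with gene models of 468 to 16439 nt. Glg1 fell from 33 and 37.6 CPM to 20.4 and 21 CPM in replicates 1 and 2 and was 16.6 and 14.2 CPM in replicate 3, with a log2 fold change of -0.76 ± 0.12 (SE, adjusted p = 0.011, edgeR) without replicate 3 and -0.59 ± 0.16 (SE) with it. Igf2r (-0.60), Rrm2 (-0.56) and Hist1h2af (-1.59) were also among these 12 genes. Kmt2a, a histone methyltransferase of gene activation, fell from 14 and 16.9 CPM to 8.19 and 9.90 CPM but was 3.24 and 6.55 CPM in replicate 3 (-0.77 ± 0.14, SE, and -0.22 ± 0.32, SE, with 3 replicates). Zfhx3, a large homeodomain factor, fell from 24.2 and 19 CPM to 13.9 and 12.5 CPM and was 2.33 and 10.2 CPM in replicate 3 (-0.69 ± 0.13, SE, and 0.14 ± 0.48, SE, with 3 replicates).

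Ppl, Dcp2, Tnrc6a, Ubr4 and Tmem170b were also among the lower genes of lowest p. Ppl (periplakin of desmosomes) had a log2 fold change of -0.62. Dcp2, the mRNA decapping enzyme, had -0.62 and Tnrc6a, the partner of Argonaute in silencing by microRNAs, -0.63. Ubr4, a ubiquitin ligase, had -0.63, and Tmem170b had -0.61. Ppl kept its direction in replicate 3 with a log2 ratio of -0.18, whereas Dcp2, Zfhx3, Tnrc6a, Kmt2a, Ubr4 and Tmem170b had ratios from 0.66 to 2.13 there. With all 3 replicates none was called, and the log2 fold changes were -0.48 for Ppl, 0.12 for Dcp2, -0.16 for Tnrc6a, -0.22 for Ubr4 and 0.013 for Tmem170b.

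The length of the mRNA moved with the direction of the call. The gene models that were counted had a median length of 4358 nt among the 595 lower genes, 2802 nt among the 1152 higher genes and 2779 nt among all tested genes. Genes were divided into 5 bins of equal size by model length. In the bin of the longest models (4589 to 21718 nt), 11.5% were called lower and 5.7% higher. In the 4 other bins 2.94% to 3.64% were called lower. The bin of shortest models (292 to 1570 nt) had 5.73% higher calls against 11.4% to 12.2% in the bins between. The median log2 ratio of the longest bin was -0.05, -0.10 and 0.16 in polysome replicates 1, 2 and 3 and -0.01, 0.15 and -0.21 in total mRNA. That of the shortest bin was -0.13, 0.06 and 0.15 in polysome and -0.09, -0.16 and -0.02 in total mRNA.

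The leaders (5′ UTRs) and the 3′ UTRs of the mRNAs differed between the sides as well. In GENCODE M21 (GRCm38), the longest complete coding transcript of each gene was taken, which 90.5% of the tested genes had. The 5′ UTRs had a median of 253 nt among higher, 137 nt among lower and 187 nt among all tested genes, and their median GC content was 62.6%, 68.2% and 64.5%. In 5 equal bins of 5′ UTR length, the shortest (1 to 85 nt) had 3.62% of genes called higher and 8.46% lower. In the bin with the longest 5′ UTRs (369 to 8962 nt), 13.3% were called higher and 2.89% lower. The genes called lower in polysome mRNA thus had the shorter and more GC-rich leaders. In total mRNA of replicates 1 and 2 the share of higher mRNAs was also larger in the longest than in the shortest bin, as given below. The 3′ UTRs had a median of 851 nt among higher, 1849 nt among lower and 1126 nt among all tested genes. In the shortest of 5 equal bins of 3′ UTR length, 10.8% were called higher and 2.76% lower, and in the longest 5.38% and 9%. These are descriptions of transcript models, and the transcripts present in these organoids were not determined.

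Because rocaglates clamp eIF4A on purine stretches, the purine hexamer GAGAGA was searched on the sense strand of the 5′ UTRs. It was present in 17.6% of the higher genes, 4.86% of the lower genes and 9.9% of all tested genes with a transcript. Its reverse complement TCTCTC was present in 11.9%, 9.19% and 9.59%, and 4 GGC repeats in a row, a structure-forming element often linked to eIF4A, in 2.62%, 3.96% and 3.06%. Longer leaders hold any hexamer more often, so the shares were also taken within the bins of 5′ UTR length. In each of the 5 bins the share with GAGAGA was highest in the higher genes and lowest in the lower genes: 6.25%, 1.8% and 0.535% of higher, uncalled and lower genes in the shortest bin, and 29.6%, 24.2% and 18.8% in the longest.

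**Figure D4:**
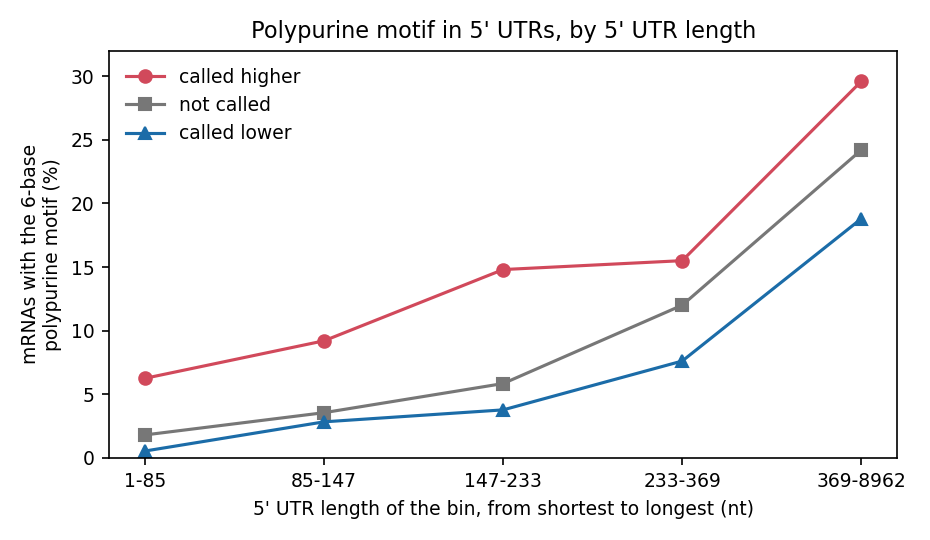
Share of mRNAs whose 5′ UTR holds the 6-base purine motif, in 5 equal bins of 5′ UTR length, for genes called higher, not called and called lower in N polysome mRNA without replicate 3. The share rises with 5′ UTR length in all 3 groups, and the order of the groups is the same in every bin (29.6%, 24.2% and 18.8% in the longest).

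Among all 1094 mRNAs with the motif, 60.9%, 61.7% and 54.1% had a higher polysome level with CR-31 in replicates 1, 2 and 3, against 48.1%, 49% and 50.8% of the 9957 mRNAs without it. In total mRNA the shares were 63.3%, 65.9% and 47.2% with the motif and 44.6%, 47.7% and 51.6% without it. These shares are pooled over 5′ UTR length. Within the bin of longest 5′ UTRs, which held 547 of the 1094 mRNAs, the polysome shares were 61.2%, 59.4% and 56.9% with the motif and 56.7%, 53.7% and 58.4% without it. In the next bin (271 mRNAs with the motif) they were 61.3%, 61.6% and 52.4% against 54.2%, 54.6% and 54.7%. In the bin of shortest 5′ UTRs (41 mRNAs with the motif) they were 51.2%, 65.9% and 48.8% against 36.1%, 38.7% and 46.6%. In the second bin (87 mRNAs) they were 58.6%, 62.1% and 49.4% against 45.3%, 48.3% and 46.3%, and in the middle bin (148 mRNAs) 62.8%, 68.9% and 51.4% against 51.2%, 51.4% and 50.2%. In replicates 1 and 2 the share with the motif exceeded the share without it in all 5 bins, by less in the 2 bins of longest 5′ UTRs than in the others. In replicate 3 it lay above in the 3 bins of shorter 5′ UTRs and below in the other two. In total mRNA of replicates 1 and 2 the share with the motif also exceeded the share without it in all 5 bins. In the shortest bin the total shares were 51.2%, 51.2% and 61% with the motif and 29.9%, 29.7% and 52.2% without it. In the longest they were 62.9%, 66.7% and 41.1% against 57.1%, 62.8% and 45.1%. These differences between shares were not tested.

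Of the 12 higher genes of lowest p, 4 held the motif in the 5′ UTR, and of the 12 lower genes 1 did. Their motifs are printed here as 20 bases of the 5′ UTR in the sense of the mRNA, with the hexamer in capitals, to show the sequence context on which the count rests. The stretches lie in 5′ UTR exons at chrX:94541980-94541999 (Maged1, minus strand), chr4:63154077-63154096 (Ambp, minus strand), chr5:44094622-44094641 (Prom1, minus strand), chr14:20347904-20347923 (Ecd, minus strand) and chr8:108674273-108674292 (Zfhx3, plus strand) of GRCm38. The same hexamer stood in the 5′ UTRs of Myc (chr15:61985565-61985584, plus strand), Junb (chr8:84978613-84978632, minus strand) and Hsph1 (chr5:149636199-149636218, minus strand), which are described with their groups.
Maged1: ggacgcgGAGAGAgtgcggg
Ambp: gagctgtGAGAGAgacatca
Prom1: catgcttGAGAGAtcaggcc
Ecd: ggcgcacGAGAGAgctattg
Zfhx3: tgaggctGAGAGAtgaccgg
Myc: ttccagcGAGAGAcagaggg
Junb: acggaggGAGAGAaaatctc
Hsph1: gctgcgtGAGAGAggcgggc
A match shows only that these letters stand in the annotated leader.

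The counts for translation initiation factors lay near the share over all genes and are no result about these lists. Of 18 genes of eIF4F and its regulators, 1 was called higher and none lower without replicate 3, at a background of 9.44% higher and 4.87% lower over all genes, and none was called with all 3. The called gene was Paip1, which bridges the poly(A) binding protein and eIF4A (log2 fold change 0.35 ± 0.13, SE, adjusted p = 0.17, edgeR, and 0.31 ± 0.14, SE, with 3 replicates). Eif4a1, the target of CR-31, was at 1150, 870 and 1280 CPM in vehicle and 993, 867 and 824 CPM in CR-31 libraries, a log2 fold change of -0.10 ± 0.13 (SE, adjusted p = 0.74, edgeR) without replicate 3 and -0.29 ± 0.16 (SE) with it. The entry that holds Eif4a2 lists a further gene and is not described. Of 31 other initiation factors 3 were called higher and none lower, led by Eif6, the anti-association factor of the large ribosomal subunit (0.62 ± 0.15, SE, adjusted p = 0.046, edgeR, and 0.21 ± 0.25, SE, with 3 replicates). The list medians without and with replicate 3 were -0.10 and 0.06 for eIF4F and its regulators and 0.06 and 0.03 for the other factors.

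Messenger RNAs of the cytosolic ribosome had medians on different sides of 0 in the replicates. None of the 68 cytosolic ribosomal protein genes was called with or without replicate 3. Their median log2 ratio was -0.27, 0.14 and 0.60 in polysome replicates 1, 2 and 3 and -0.26, -0.18 and -0.86 in total mRNA, and in replicate 3 all 68 were higher in polysome and lower in total mRNA. Rpl3, for example, was at 2280, 3110 and 2540 CPM in vehicle and 1710, 3030 and 3340 CPM in CR-31 polysome libraries. Of 17 elongation factors and other mRNAs with a terminal oligopyrimidine tract, 1 was called lower, at a background of 9.44% higher and 4.87% lower over all genes. Of 69 mitochondrial ribosomal protein genes 10 were called lower and none higher without replicate 3, including Mrps2 (-0.41 ± 0.11, SE) and Mrps5 (-0.34 ± 0.12, SE). Their median was -0.11, against a median of -0.0004 over all genes. By replicate, their median log2 ratio was -0.25, 0.01 and 0.21 in polysome replicates 1, 2 and 3, with 13, 37 and 45 of the 69 genes higher. In total mRNA it was -0.15, -0.22 and -0.13. With 3 replicates none of the 69 was called, their median was -0.0023 against 0.02 over all genes, and Mrps2 and Mrps5 had -0.22 and -0.24.

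Immediate early genes, whose transcription is switched on within minutes of a stimulus, were called in the higher direction only. Of 36 tested, 14 were called higher and none lower without replicate 3, at a background of 9.44% higher and 4.87% lower over all genes, and none was called with all 3 replicates, where the median log2 fold change was -0.45. The median without replicate 3 was 0.16. In replicate 1, 29 of the 36 genes were higher (median log2 ratio 0.33), and in replicate 2, 19 were higher (median 0.02). The AP-1 subunit Junb rose from 282 and 105 CPM to 590 and 145 CPM in replicates 1 and 2 (0.77 ± 0.17, SE, adjusted p = 0.035, edgeR) and was 1790 and 197 CPM in vehicle and CR-31 of replicate 3. Klf5, an epithelial transcription factor, had 0.48, and Ier5 had 0.56. With 3 replicates Junb, Klf5 and Ier5 had -0.38, 0.15 and -0.19. The list carried the widest contrast within replicate 3, with a median log2 ratio of -1.68 in polysome and 1.58 in total mRNA. Of 17 feedback genes of the MAPK pathway, 7 were called higher and none lower, and here too the median log2 ratio was 0.29 in replicate 1 and 0.01 in replicate 2. They included the ERK phosphatase Dusp6 (0.66 ± 0.15, SE), the receptor signalling inhibitor Spry2 (0.51 ± 0.13, SE) and Phlda1 (0.64 ± 0.14, SE). With 3 replicates these genes had 0.016, 0.31 and 0.013, none of the 17 was called, and the list median was 0.06, against 0.08 without replicate 3.

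Cytosolic heat shock genes, which encode chaperones, included the gene with the biggest fitted change among the examples named here on the higher side. Hspa1a, an inducible chaperone of the Hsp70 family, rose from 147 and 72.6 CPM to 314 and 258 CPM in replicates 1 and 2 and was 486 and 74.4 CPM in vehicle and CR-31 of replicate 3. The log2 fold change was 1.47 ± 0.22 (SE, adjusted p = 0.0082, edgeR) without replicate 3 and 0.27 ± 0.78 (SE) with it. Hspa1b (0.94 ± 0.18, SE) is nearly identical to Hspa1a, and since reads that map to several places were discarded the split between the pair is uncertain. Hsph1, a nucleotide exchange factor of Hsp70, rose by 0.70 ± 0.12 (SE). In all, 6 of 18 heat shock genes were called higher and none lower, at a background of 9.44% higher and 4.87% lower over all genes. Their median was 0.12 without replicate 3 and -0.09 with it, where none was called and Hspa1b and Hsph1 had 0.07 and 0.07. Of 29 genes of the integrated stress and unfolded protein response, 2 were called higher and 1 lower, which is near the background and no result about the list. The endoplasmic reticulum chaperone Hsp90b1 rose by 0.68 ± 0.14 (SE) without replicate 3 and had -0.08 ± 0.42 (SE) with it, and the list median was 0.02 without replicate 3 and -0.11 with it.

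mRNAs of short-lived growth and survival proteins, a class often named as dependent on eIF4A, numbered 33 tested genes. Of these 5 were called higher and 2 lower without replicate 3, at a background of 9.44% higher and 4.87% lower over all genes, and none was called with all 3. Their median log2 fold change was 0.02 without replicate 3 and 0.07 with it. Myc was at 109, 43.3 and 73.4 CPM in vehicle and 182, 59.6 and 54.8 CPM in CR-31 polysome libraries. It was higher with CR-31 in replicates 1 and 2 and lower in replicate 3, with a log2 fold change of 0.61 ± 0.13 (SE, adjusted p = 0.035, edgeR) without replicate 3 and 0.26 ± 0.22 (SE) with it. Its total mRNA was higher with CR-31 in all 3 replicates, at 247, 79.8 and 122 CPM against 138, 54.3 and 66.0 CPM. Birc2, an inhibitor of apoptosis, rose by 0.53 ± 0.13 (SE) without replicate 3, was higher in all 3 pairs and had 0.37 ± 0.16 (SE) over them.

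Metabolic genes were counted in 5 lists, at the background of 9.44% higher and 4.87% lower over all genes. Of 75 respiratory chain subunits 1 was called higher and 3 lower, the higher gene being the complex I subunit Ndufs1 (log2 fold change 0.57 ± 0.12, SE). Of 48 genes of glutathione, NADPH and the NRF2 response, 6 were called higher and 1 lower, led by Hmox1, the haem oxygenase (0.52 ± 0.12, SE). Of 25 glycolysis and glucose transport genes 4 were called higher and 1 lower, among them the aldolase Aldoc (0.65 ± 0.12, SE). Of 26 glutamine, amino acid transport and lipogenic genes 7 were called higher and 1 lower, with ATP citrate lyase (Acly) rising from 183 and 134 CPM to 315 and 216 CPM (0.75 ± 0.13, SE). Of 22 cholesterol synthesis genes 2 were called higher and none lower. The medians of these 5 lists lay between -0.04 and 0.08 without replicate 3 and between -0.15 and 0.02 with it. With 3 replicates none of their genes was called, and Ndufs1, Hmox1, Aldoc and Acly had 0.04, 0.16, -0.0008 and 0.26.

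Cell cycle and adhesion genes that were called were mostly higher, at the same background of 9.44% higher and 4.87% lower. Of 32 mitosis and DNA replication genes, 13 were called higher and 3 lower (median 0.12), with the spindle assembly factor Tpx2 (0.75 ± 0.14, SE) and the replicative helicase subunit Mcm7 (0.65 ± 0.13, SE) on the higher side and Rrm2 on the lower. Of 32 integrin, laminin and adhesion genes, 10 were called higher and 2 lower. Beta-catenin (Ctnnb1), which links cadherins to actin and carries WNT signals, rose from 966 and 903 CPM to 1720 and 1620 CPM in replicates 1 and 2 and was 1270 and 600 CPM in vehicle and CR-31 of replicate 3 (0.85 ± 0.13, SE). The laminin chain Lamb3 rose by 0.76 ± 0.12 (SE). With 3 replicates no gene of either list was called, the medians were -0.01 and -0.02, and Tpx2, Mcm7, Ctnnb1 and Lamb3 had 0.27, 0.14, 0.22 and 0.23.

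The 4 lists counted next stand against the same background of 9.44% higher and 4.87% lower over all genes. Of 31 genes of the WNT, Notch and EGF receptor pathways 5 were called higher and 2 lower, the WNT co-receptor Lrp6 among the latter (-0.42 ± 0.11, SE). Of 23 lysosome and autophagy genes 6 were called higher and 1 lower, the lower gene being Igf2r. Of 49 replication-dependent histone genes 2 were called higher and 4 lower. Of the 18 duct markers 6 were called higher and 3 lower, with Sox9, a transcription factor of duct identity, at 0.51 ± 0.14 (SE) and Onecut2 at -0.50 ± 0.14 (SE). With 3 replicates none of these genes was called, and Lrp6, Sox9 and Onecut2 had 0.12, 0.09 and -0.08.

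**Figure D5:**
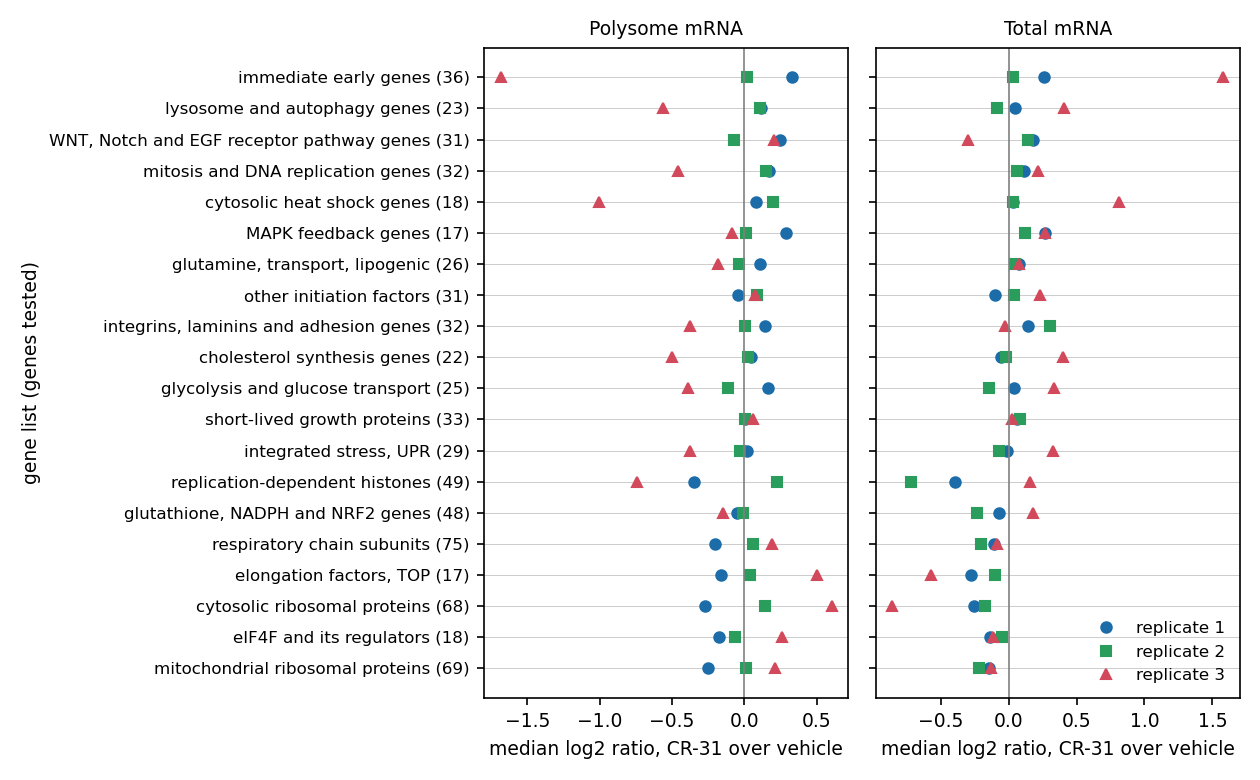
Median log2 ratio of CR-31 over vehicle for 20 gene lists in polysome (left) and total (right) mRNA of N organoids, by replicate, with the number of genes tested in parentheses. In polysome mRNA replicate 3 lies farthest from 0 for 15 of the 20 lists, and in 17 lists its polysome and total medians have opposite signs (2 lists in replicate 1 and 9 in replicate 2), as for the immediate early genes (-1.68 and 1.58) and the cytosolic ribosomal proteins (0.60 and -0.86).

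The study itself selected a list of mRNAs as translationally regulated in N organoids from these libraries, so its direction here is not independent evidence. Of its 25 genes that were tested, none was called with 3 replicates, and 4 were called higher and 6 lower without replicate 3, at a background of 9.44% higher and 4.87% lower over all genes. Hif3a, a hypoxia-inducible factor subunit, was at 1.44, 1.01 and 1.16 CPM in vehicle and 0.746, 0.548 and 0.426 CPM in CR-31 libraries, so that the groups did not overlap (log2 fold change -1.06 ± 0.21, SE, with 3 replicates and -0.91 ± 0.22, SE, without replicate 3). Pcca, a subunit of propionyl-CoA carboxylase, also had separate groups, at 14.6, 13.9 and 16.5 CPM against 10.2, 11.3 and 9.01 CPM (-0.56 ± 0.17, SE, and -0.40 ± 0.15, SE, without replicate 3). The AP-1 subunit Fosl2 was higher in replicates 1 and 2 and lower in replicate 3.

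Polysome changes were next set against total mRNA of the same lysates. In a fit over polysome and total libraries that tests whether the 2 fractions changed differently (translational efficiency), no gene was called with all 3 replicates (0% called, 122 with an unadjusted p below 0.05, smallest adjusted p 0.80, edgeR). Without replicate 3, 2 genes were called (0.0164%), Hist1h2ad and Hist1h2ae, which were named after their values were seen. Total Hist1h2ad went from 44.3 and 57.0 CPM in vehicle to 1.12 and 8.56 CPM with CR-31 in replicates 1 and 2, while the polysome values of 37.2 and 21 CPM in vehicle and 11.7 and 60.1 CPM with CR-31 went in different directions. Both belong to the near-identical histone genes, and the counts are uncertain for that reason. With the 4 libraries of KP replicate 1 left out as well, 51 genes were called. In KP replicate 1 both polysome libraries were closer to vehicle total (0.970 for vehicle and 0.974 for CR-31) than to CR-31 total (0.913 and 0.884).

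Total mRNA of N organoids was tested in the same way. With all 3 replicates 1117 genes had an unadjusted p below 0.05 and 8 genes were called (0.0655%), of which 6 were higher (0.0491%) and 2 lower (0.0164%), and 4 of the genes named above were among them, all higher. Total Prom1 was at 336, 669 and 484 CPM in vehicle and 646, 1530 and 1100 CPM with CR-31 (log2 fold change 1.11 ± 0.18, SE, adjusted p = 0.17, edgeR). Maged1 (1.08 ± 0.16, SE), Hspa1a (1.10 ± 0.17, SE) and Hspa1b (1.09 ± 0.17, SE) were the others. Their log2 fold changes of translational efficiency without replicate 3 were -0.05 for Prom1, 0.25 for Maged1, 0.55 for Hspa1a and 0.04 for Hspa1b, none of them called.

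The response of N polysome mRNA was also compared with that of KP organoids. In KP replicate 2 the vehicle and CR-31 polysome libraries came from different sequencing runs, whereas each other KP pair shared a run and lane. The SD of the log2 ratios over genes was 0.43, 0.55 and 0.43 in KP polysome replicates 1, 2 and 3. Treatment and run cannot be told apart in KP replicate 2, and what this adds to the KP minus N values was not tested. With all 3 replicates the difference between the CR-31 effects (KP minus N) was called for no gene (0%, 1742 with an unadjusted p below 0.05, smallest adjusted p 0.34, edgeR). Without N replicate 3 it was called for 3318 genes (27.2%), 1336 of them (10.9%) with the higher effect in KP and 1982 (16.2%) with the higher effect in N, and for 0 genes at an adjusted p of 0.05. With KP replicate 1 left out as well, 786 genes were called, 334 with the higher effect in KP and 452 with the higher effect in N. The balance of directions depended on the scaling here too. With RLE scaling and only N replicate 3 left out, 1553 genes had the higher effect in KP and 1730 in N. The genes below were named for their N values, which in part fixes the sign of the difference, so their differences are a description. Igf2r fell by 0.60 on the log2 scale in N polysome mRNA without replicate 3 and had 0.18 in KP (difference 0.79 ± 0.13, SE, adjusted p = 0.096), and Dmbt1 had -0.61 in N and 0.31 in KP (difference 0.92 ± 0.18, SE, adjusted p = 0.096). For Prom1, which had 1.03 in N and 1.04 in KP, the difference was 0.01 ± 0.17 (SE), and for Myc it was -0.03 ± 0.17 (SE). For Junb (-0.22 ± 0.22, SE) and Eif4a1 (0.18 ± 0.17, SE) no difference was detected at this precision either.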

How the data were processed

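RNA-seq libraries of polysome-associated and total mRNA of N and KP mouse organoids were analysed from the table the authors deposited, which pairs RPKM values with raw counts per gene. Per the study's methods, reads were aligned with HISAT2 to a genome named hg38 although the genes are mouse RefSeq genes, reads mapping to several places were discarded, and coding genes were counted over the full transcript with RPKMforgenes. The deposited counts were tested here. The RPKM values, which the authors scaled by gene length and library size, served only to recover gene model lengths. Of 19895 entries, 12209 with a count above 0 in all 24 libraries were tested, 752 of which list several symbols and are not named.

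edgeR 4.0.16 (glmQLFit, glmQLFTest, TMM scaling) was fitted to the 12 polysome libraries, with the replicate number within organoid type as a block and treatment within type, and again to 10 libraries without N replicate 3. KP libraries share the estimate of the spread. A gene was called at a Benjamini-Hochberg adjusted p below 0.25, the study's threshold. The block was used because same-numbered libraries deviated together from their group means (N r = 0.81, 0.75 and 0.56, from the data and not from a label). Log2 ratios of single pairs use a prior count of 0.5. Replicate libraries differed by far more than counting noise (548 to 1580 chi-square units per gene). The fits were run on simulated counts with known changes, which had no differences between replicate pairs or between organoid types. That run checks the code and cannot show how well the calls hold on these data. Genes were named by p within direction (at least 100 counts), by list (lowest p) and from the study's N list. Alternatives were RLE and upper-quartile scaling, DESeq2, other count filters, no block, N libraries alone, a lane term, and leaving out each replicate. The contrast, the gene lists and the rule for named genes were chosen with earlier results of these data known. 5′ UTRs came from GENCODE M21 (GRCm38). Some of the genes that the naming rule chose are not reported here.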

Additional observations from a re-analysis of the deposited data

Results flagged for a closer look

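The CR-31 effect differed between KP and N polysome mRNA without N replicate 3 for 3318 genes at an adjusted p of 0.25 (edgeR, test of the difference itself), and for none with all 3 N replicates. Of the 71 genes followed by name, 41 had a called difference (27.2% of all tested genes did), with adjusted p values from 0.096 to 0.23, and 12 were higher in all 3 pairs of an organoid type and lower in all 3 pairs of the other (7.09% of all tested genes were). Of the 71, 20 were chosen for having the same direction in all 3 N pairs. The differences below are KP minus N on the log2 scale, from the fit without N replicate 3. That fit includes KP replicate 2, whose vehicle and CR-31 polysome libraries came from different sequencing runs. Most of these genes were named for their values in the same N libraries, so that the sign of the difference follows largely from that choice and the values are a description only.

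Among genes that were higher in N, the effect was smaller or opposite in KP for Lars2 (-1.09), Eif6 (-0.93), Hspa1a (-0.73), Itgb5 (-0.69), Osbpl10 (-0.64), Vac14 (-0.58), Ephx1 (-0.51), Ccdc122 (-0.50), Bdh1 (-0.48), Gins4 (-0.43), Maged1 (-0.43), Nck2 (-0.43), Aldoc (-0.43), Hmox1 (-0.42), Hdac6 (-0.37), Gtf2h2 (-0.36), Paip1 (-0.36), Maged2 (-0.30) and Atp6v1h (-0.29). Tpx2, the spindle assembly factor, was the gene of this direction with a called difference and the bigger effect in KP (0.48).

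Among genes that were lower in N, the difference was positive for Hif3a (1.28), Dmbt1 (0.92), Ylpm1 (0.87), Igf2r (0.79), Kmt2a (0.78), Tnks (0.72), Glg1 (0.72), Ppl (0.67), Zfhx3 (0.66), Pcca (0.65), Mkln1 (0.64), Ubr4 (0.61), Lrp6 (0.56), Tnrc6a (0.55), Onecut2 (0.54), Tmem170b (0.53), Hadhb (0.50), Rrm2 (0.48), Dcp2 (0.44), Krt4 (0.40) and Mrps2 (0.37). Eif4a1 was lower in all 3 N pairs and higher in all 3 KP pairs, with a difference of 0.18 that the test did not call (adjusted p = 0.55, edgeR). These differences were not called with N replicate 3 included, and without the replicate block none was called.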

How the results depend on the processing

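With all 3 replicates 0 genes were called under both other scalings, both other filters, no replicate block, N libraries alone and with multi-symbol entries left out. DESeq2 called 5 genes, the lane term 1, and leaving out a replicate gave 1 to 1747 calls: 3 without replicate 1, 1 without replicate 2 and 1747 without replicate 3. Without replicate 3 the 1747 calls became 1847 (RLE), 1753 (upper quartile), 1900 (DESeq2), 1585 and 1710 (filters), 1711 (single symbols) and 2578 (N libraries alone), but 0 with no replicate block, 448 with the lane term and 158 to 472 with a further N replicate left out, which leaves a lone pair assumed to vary like KP. Those 158 calls are without replicate 1 and the 472 without replicate 2. The KP minus N difference gave 0 calls with 3 replicates and 1 to 3318 when an N replicate was left out, and its 3318 calls without N replicate 3 became 0 with no replicate block (pairing ignored) and 786 without KP replicate 1. Translational efficiency gave 2 to 3 calls when an N replicate was left out. Without N replicate 3 its 2 calls became 1 with no replicate block and 51 without KP replicate 1. The cause of these shifts was not tested, apart from the fewer libraries in the smaller fits.

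With replicate 3 included, 8 of the 57 genes named from replicates 1 and 2 turned direction: Junb (-0.38), Ier5 (-0.19), Hsp90b1 (-0.080), Aldoc (-0.0008), Dcp2 (0.12), Zfhx3 (0.14), Lrp6 (0.12) and Tmem170b (0.013). With no replicate block none of the 57 was called (55 were called with it), and 14 lost their call with the lane term. List medians without replicate 3 were held against the SD of their medians in replicates 1 and 2. With RLE scaling 5 moved by more than that SD and 16 did not. Upper-quartile scaling gave the same counts, and with no replicate block 3 moved and 18 did not. The 20 genes named from 3 replicates kept their direction in all alternatives run, which follows largely from choosing genes with the same direction in all 3 pairs. No alternative thinned the counts, so what depth limits was not tested. The alternatives on translational efficiency and the KP minus N difference without N replicate 3, and the values with replicate 3 for genes named without it, were chosen after seeing the data.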
